A study of Mus musculus with 12 samples.

Results

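The expression of 31 smooth muscle genes was followed, among them the muscle actins Acta2 and Actg2, the myosin heavy chain Myh11 and the muscle regulator Myocd. The members were a fixed list of symbols, matched through GENCODE M21 (GRCm38) to the Ensembl identifiers of a count table. All 31 were found among 54109 identifiers. The rule used no measured value, but the list was chosen with earlier results of these data known. The libraries came from mice with acute colitis induced by dextran sulfate sodium (DSS), a polymer that injures the colonic lining. The 12 libraries formed 4 groups of 3: full colon of Gpr15l-/- mice (colon KO), full colon of wild-type mice (colon WT), LPMC of Gpr15l-/- mice (LPMC KO) and LPMC of wild-type mice (LPMC WT). All 4 groups had received DSS, and untreated mice were not analysed here. LPMC is the usual abbreviation of lamina propria mononuclear cells, a preparation of the cells of the connective tissue under the gut epithelium. Gpr15l encodes a secreted ligand of Gpr15, a receptor that guides T cells to the colon.

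Smooth muscle forms the outer muscle coat of the colon, the thin muscularis mucosae under the mucosa, and the walls of its vessels. Its cells contract when calcium activates myosin light chain kinase, which phosphorylates the light chain of Myh11-type myosin and lets it pull on filaments of smooth muscle actin. Many of the genes of this apparatus are activated by the serum response factor SRF together with myocardin (Myocd), through a DNA element named the CArG box. In full-thickness colon these transcripts are known as a measure of the muscle coat, whereas preparations of lamina propria cells are made to leave that coat behind.

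Sequences show how similar the muscle actins are and what the promoters of the members hold. Below are the last 60 coding bases of the transcripts in GENCODE M21, with capitals where a base differs from Acta2. Acta2 is the actin of vascular smooth muscle and of muscle and myofibroblasts more widely (chromosome 19), Actg2 is the actin of visceral smooth muscle (chromosome 6), and Acta1 is the actin of skeletal muscle (chromosome 8), which is no member. They are shown because the results turn on Acta2 (chr19:34241090-34255590, minus strand) and Actg2 (chr6:83512905-83536265, minus strand), which belong to 1 gene family.
Acta2: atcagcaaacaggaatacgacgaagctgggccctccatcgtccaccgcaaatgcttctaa
Actg2: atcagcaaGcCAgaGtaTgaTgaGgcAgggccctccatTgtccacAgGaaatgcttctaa
Acta1: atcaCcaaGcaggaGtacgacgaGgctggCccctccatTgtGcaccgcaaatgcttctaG
Over the whole coding sequence 84.2% of bases of Actg2 and 85.4% of bases of Acta1 were identical to Acta2. The longest stretch without a difference was 29 bases for either pair.

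The CArG box, 10 letters long and the same on both strands, was searched by its name from 250 bases before to 50 bases after the starts of RefSeq genes (GRCm38.p6), and no other motif was searched. Of the 31 members, 26 had a promoter in that table. An exact box stood in 3 of these (11.5%), Myl9, Ldb3 and Fhl1, against 1.81% of 27025 genes. A box with at most 1 letter different stood in 12 members (46.2%), against 23.8% of all genes. The 250 bases before the start of 3 members follow, with exact boxes or those with 1 letter different in capitals. Myl9 and Acta2 are shown because they moved with most other members across libraries, and Ldb3, because it did not.
Myl9 (chr2:156775214-156775463, plus strand): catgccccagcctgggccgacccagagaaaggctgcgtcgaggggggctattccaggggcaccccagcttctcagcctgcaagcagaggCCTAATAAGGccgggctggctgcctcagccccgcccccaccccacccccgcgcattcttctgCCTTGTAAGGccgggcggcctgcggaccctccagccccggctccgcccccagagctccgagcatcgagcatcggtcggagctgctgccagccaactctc
Acta2 (chr19:34255374-34255623, minus strand): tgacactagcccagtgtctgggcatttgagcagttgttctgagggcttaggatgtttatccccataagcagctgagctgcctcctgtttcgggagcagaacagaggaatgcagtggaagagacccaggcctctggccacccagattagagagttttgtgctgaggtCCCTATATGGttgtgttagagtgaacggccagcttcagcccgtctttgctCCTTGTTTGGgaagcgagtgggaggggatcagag
Ldb3 (chr14:34588682-34588931, minus strand): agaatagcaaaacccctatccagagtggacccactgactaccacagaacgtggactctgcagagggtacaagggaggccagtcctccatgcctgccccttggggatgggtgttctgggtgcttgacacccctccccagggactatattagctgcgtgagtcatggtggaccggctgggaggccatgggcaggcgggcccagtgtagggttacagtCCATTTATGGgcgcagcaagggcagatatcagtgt
In the promoters shown, the exact box of Myl9 began 161 bases before the start and that of Ldb3 began 35 bases before it. Acta2 held 2 boxes with 1 letter different, which began 84 and 34 bases before the start. A match describes these letters only and shows no binding.

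Total counts ran from 45.4 M to 140.7 M per library (M for 1e6). Whether each library stands for its own mouse is not stated in the labels, and the p-values below therefore rest on a spread between libraries that may be technical. The deleted gene, annotated as 2610528A11Rik, held 14 to 20 counts in colon KO libraries against 15639 to 80362 in colon WT, and 4 to 10 counts in LPMC KO libraries against 18619 to 32405 in LPMC WT. Epithelial transcripts were abundant in LPMC as well as in colon. The summed level of 10 epithelial markers was 16976 to 32773 CPM in colon libraries and 9764 to 14090 CPM in LPMC libraries, where CPM are counts per 1e6 reads after TMM scaling. Leukocyte markers, 10 in all, summed to 40.8 to 960 CPM in colon libraries and to 317 to 1210 CPM in LPMC libraries. The preparation labelled LPMC thus held transcripts of epithelium beside those of leukocytes.

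Transcripts of the members were plentiful in sum in both kinds of sample, and libraries of 1 group could differ several-fold in them. Summed over the 31 members, the level was 2430, 4462 and 2838 CPM in colon KO libraries 1 to 3 and 1494, 3292 and 1702 CPM in colon WT. It was 1734, 1446 and 2150 CPM in LPMC KO libraries and 3678, 2691 and 1124 CPM in LPMC WT. The sum is weighted to abundant members, such as Tpm1, which many cell types use. In LPMC WT replicate 3, Tpm1 held 300 CPM, Csrp1 224 CPM and Flna 184 CPM. Acta2 held 40.2 CPM there, Actg2 8.41 CPM and Cnn1 7.73 CPM. In LPMC KO replicate 2, Tpm1, Csrp1 and Flna held 332, 330 and 218 CPM, and Acta2, Actg2 and Cnn1 58.3, 19.6 and 13.7 CPM. Within each tissue the sums of KO and WT libraries overlapped, every colon KO sum was above every LPMC KO sum, and LPMC WT held both the highest and the lowest LPMC library. As a measure less weighted to abundant genes, each member was set against its own mean over the 12 libraries on the log2 scale, and the median over members was taken as a fold of that mean. This muscle level was 1.09, 1.71 and 1.42 in colon KO and 0.655, 1.48 and 0.718 in colon WT. It was 0.826, 0.518 and 1.11 in LPMC KO and 1.81, 1.33 and 0.499 in LPMC WT. LPMC WT replicate 1 therefore had the highest muscle level of the 12 libraries and LPMC WT replicate 3 the lowest. Replicate 1 of LPMC WT was the highest LPMC library for 29 of 31 members and the highest of all 12 for 12 members. LPMC WT replicate 3 was the lowest LPMC library for 22 members and the lowest of all 12 for 17. In colon, KO replicate 2 was highest for 15 members and WT replicate 1 lowest for 20. In bulk samples, fewer muscle cells and less muscle RNA per cell cannot be told apart.

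**Figure D1:**
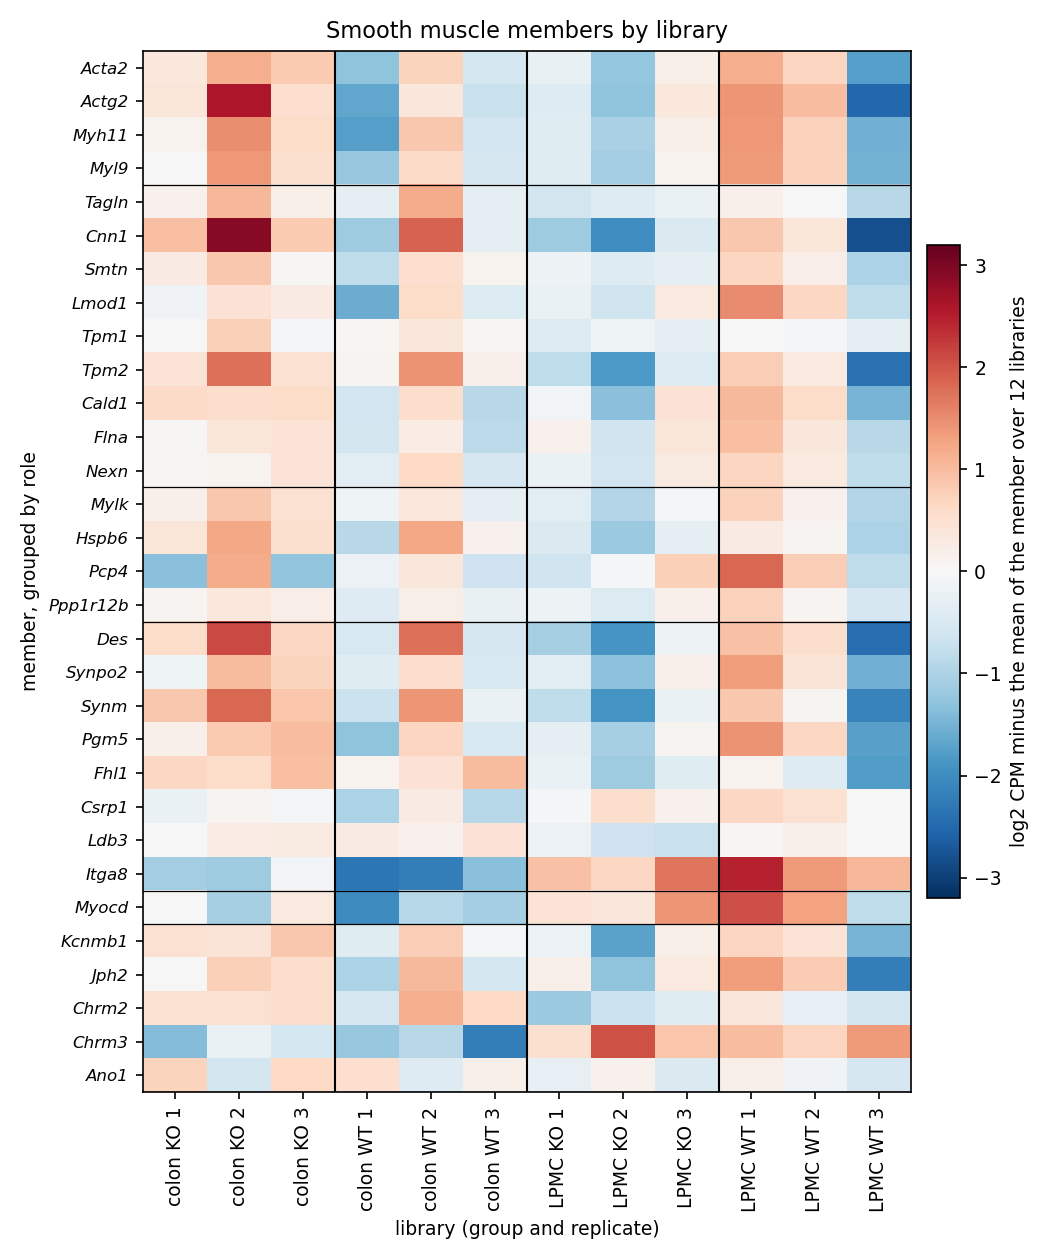
Level of each of the 31 members (rows, grouped by role) in each of the 12 libraries (columns, group and replicate), as log2 CPM minus the mean of that member over the 12 libraries; red is higher and blue lower. Some columns are mostly of a single colour, with LPMC WT replicate 1 mostly red and LPMC WT replicate 3 mostly blue, while Itga8 and Chrm3 are blue in the colon libraries and red in the LPMC libraries.

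The spread between libraries was widest for the visceral actin and for calponin and narrow for a few members. Actg2 differed 19.0-fold between the highest and the lowest colon library and 15.1-fold between the highest and the lowest LPMC library. Cnn1, calponin, which binds actin and slows myosin, differed 16.4-fold among colon libraries and 12.7-fold among LPMC libraries. Over all members the median of this ratio was 3.23 in colon and 4.97 in LPMC. At the other end stood Ldb3, a Z-disc protein that binds alpha-actinin, with 1.38-fold in colon, and Tpm1, a tropomyosin that many cell types use, with 1.35-fold in LPMC. As a description over the 6 libraries of a tissue, which share depth and makeup across genes, each member was correlated with the median of the other members on the log2 scale. Pearson's r was over 0.8 for 22 members in colon and 25 in LPMC, with medians of 0.89 and 0.97. Ppp1r12b, the myosin phosphatase target subunit of muscle, was closest to the others in colon (0.99), and Myh11, Myl9, Synm and Synpo2 were in LPMC (1.00 when rounded). Negative values were those of Ano1 (-0.53) and Ldb3 (-0.38) in colon and of Chrm3 (-0.64) in LPMC. Ano1, a calcium-activated chloride channel, is the classical marker of interstitial cells of Cajal, the pacemaker cells beside the muscle, and is also made by epithelia. Chrm3 is a muscarinic acetylcholine receptor of both smooth muscle and epithelium.

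Levels were compared between genes per kilobase of exon. On this scale the highest members were Csrp1, a LIM protein of the actin cytoskeleton (97.6 CPM per kilobase in colon and 143 in LPMC), and Acta2 (83.1 in colon and 68.3 in LPMC). Myl9, the regulatory light chain of smooth muscle myosin, stood at 71.9 and 64.4 CPM per kilobase in colon and LPMC, and Tpm1 at 66.0 and 48.9. The order of these 4 was the same in both tissues. Des, desmin, the intermediate filament of muscle, ranked 5 in colon and 8 in LPMC, and Cnn1 ranked 7 in colon and 11 in LPMC. The lowest 5 in colon were Chrm2, Pcp4, Myocd, Chrm3 and Itga8, at 0.64 to 0.0652 CPM per kilobase, and the same 5 were lowest in LPMC. Neighbours in this order were not tested against each other, and Acta2 itself varied from 56.0 to 307 CPM among colon libraries and from 40.2 to 306 CPM among LPMC libraries. Tagln, transgelin (SM22), stood far below its neighbours of the contractile apparatus, at 4.03 to 11.4 CPM in colon libraries and 2.73 to 5.60 CPM in LPMC libraries. Of its 1988 exon bases, 62.4% are shared with Gm48529 on the opposite strand, which itself held 146 to 502 counts per library. The strand setting of the counting is not given in the sources used here, so the level of Tagln is uncertain. In all, 10 members share exon bases with another gene.

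The first comparison asked whether muscle transcripts differed between KO and WT colon. Most members were higher in KO colon by the fitted fold change, but none passed the test. Acta2 was at 173, 307 and 244 CPM in colon KO and at 56.0, 223 and 92.0 CPM in colon WT. WT replicate 2 lay above KO replicate 1, so the groups overlapped. The mean was 241 ± 67.2 CPM in colon KO and 124 ± 88.0 CPM in colon WT (SD, n = 3 each), a log2 fold change of 0.95 (SE 0.50). Actg2 was at 62.5, 287 and 69.9 CPM in colon KO and at 15.1, 61.8 and 29.5 CPM in colon WT. The groups did not overlap, although WT replicate 2 came close to KO replicate 1. Its log2 fold change was the largest of the members, at 1.97 (SE 0.74), with an adjusted p of 0.632 in edgeR's quasi-likelihood test and 0.0308 without adjustment. Myh11 was at 181, 472 and 251 CPM in colon KO and at 49.6, 302 and 109 CPM in colon WT. Here too WT replicate 2 stood among the KO libraries, with a log2 fold change of 0.97 (SE 0.66). Myl9 gave 0.91 (SE 0.53), so all 4 genes of actin and myosin had positive values.

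The other roles in colon had smaller values in most members. Among the 9 genes of the thin filament and the proteins that link actin, the log2 fold changes ran from 0.12 for Tpm1 to 1.16 for Cnn1, with a median of 0.38. Cnn1 was at 105, 406 and 96.5 CPM in colon KO and at 24.7, 202 and 44.6 CPM in colon WT. KO replicate 2 and WT replicate 2 were the high libraries of their groups. Caldesmon Cald1, which holds myosin back on actin, was at 0.74 (SE 0.37) and the crosslinker filamin A, Flna, at 0.61 (SE 0.31). The smaller values were those of Lmod1, which nucleates actin filaments (0.43, SE 0.52), Smtn, smoothelin (0.38, SE 0.37), Tpm2, the tropomyosin of muscle (0.33, SE 0.50), Nexn, nexilin, an actin-binding protein (0.17, SE 0.39), and Tagln (0.15, SE 0.51). The 4 genes that control contraction were at 0.10 to 0.53, including the light chain kinase Mylk (0.53, SE 0.26) and Hspb6, a small heat shock protein that acts in relaxation (0.33, SE 0.54). Among the 8 genes of intermediate filaments and attachment, Itga8, the integrin alpha8 chain, was at 0.495, 0.489 and 1.02 CPM in colon KO and at 0.217, 0.232 and 0.430 CPM in colon WT. These groups did not overlap, but the counts were 10 to 152 per library and the log2 fold change of 1.17 (SE 0.51) did not pass (adjusted p = 0.632, edgeR's quasi-likelihood test). Pgm5, a protein of adherens junctions (0.82, SE 0.50), Synm, a partner of desmin filaments (0.79, SE 0.57), and Synpo2, an actin-bundling protein (0.63, SE 0.40), were positive beside Des (0.62, SE 0.73). Myocd was at 1.35, 0.653 and 1.69 CPM in colon KO and at 0.338, 0.720 and 0.645 CPM in colon WT, with overlap and a log2 fold change of 1.11 (SE 0.50). Among receptors and channels Kcnmb1, the beta subunit of the large potassium channel of smooth muscle, was at 0.39 (SE 0.38), Jph2, junctophilin, which ties the calcium store to the membrane, at 0.36 (SE 0.54), Chrm3 at 0.70 (SE 0.51) and Ano1 at 0.20 (SE 0.39). The 2 negative values were those of Ldb3 (-0.11, SE 0.22) and Chrm2, the more abundant muscarinic receptor of gut muscle (-0.06, SE 0.43).

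Counted over the list, 0 of 31 members passed the threshold of 0.05 after adjustment in edgeR's quasi-likelihood test. The background was 0.00518% of 19303 genes tested, all of it lower, and 0% higher. DESeq2 and limma voom also called 0 members, where they called 33 and 1 of 19303 genes. Actg2 was the 1 member at an unadjusted p under 0.05, where 7.79% of all genes were. The fitted values of 29 members were positive, against 50.5% of all genes, and their median was 0.43, against 0.01 over all genes. Because most members varied together across libraries, these signs are not separate observations. In 2 members, Actg2 and Itga8, every KO library lay above every WT library, where 7.78% of all genes tested did so. In 0 members every KO library lay below every WT library, where 6.53% of all genes did. The median was 0.26 without colon WT replicate 1, 0.29 without colon KO replicate 2 and 0.99 without colon WT replicate 2. Several lists of markers of other cell types had values of 1 sign as well. All 12 markers of PDGFRA-positive interstitial cells and fibroblasts were positive, with a median of 0.75, summing to 278 to 1094 CPM in colon KO libraries against 298 to 542 CPM in colon WT. All 10 leukocyte markers were negative, with a median of -1.23, summing to 40.8 to 183 CPM in colon KO libraries against 102 to 960 CPM in colon WT. All 8 pericyte markers tested were positive, with a median of 0.60, summing to 145 to 174 CPM in colon KO libraries against 73.3 to 127 CPM in colon WT. All 5 adipocyte markers tested were positive, with a median of 2.06, and the list of 8 summed to 11.7 to 56.2 CPM in colon KO libraries against 10.5 to 20.4 CPM in colon WT. None of these markers was called by edgeR (lowest adjusted p = 0.632), and their part in the muscle values was not tested.

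**Figure D2:**
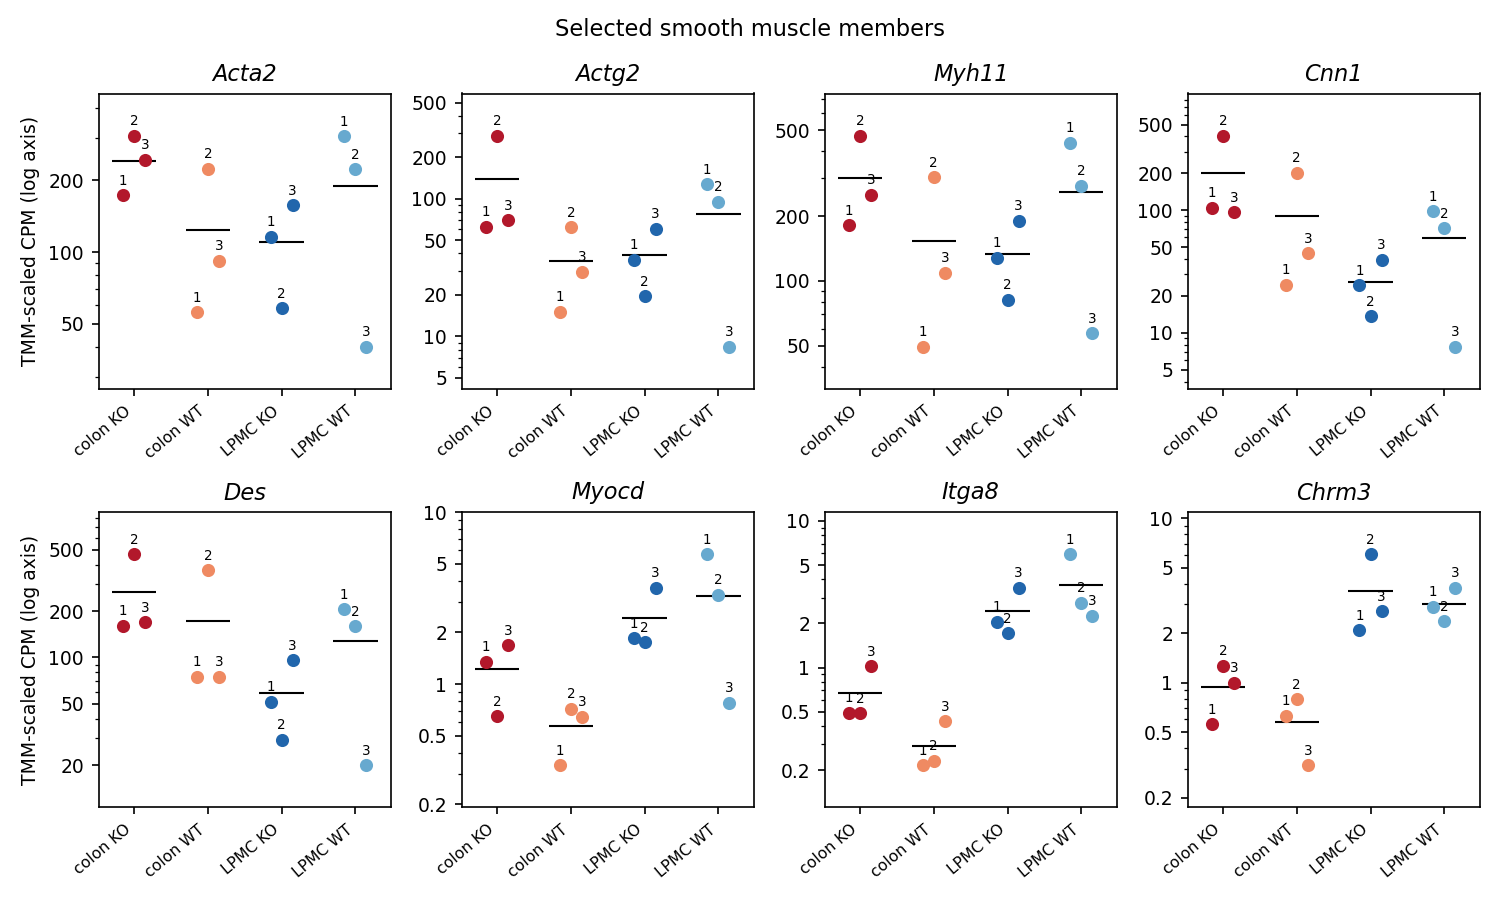
TMM-scaled CPM (log axis) of 8 members in the 12 libraries, with the replicate number at each point and the group mean as a line. Acta2, Actg2, Myh11, Cnn1 and Des overlap between colon and LPMC, with LPMC WT replicate 3 the lowest LPMC library, whereas Itga8 and Chrm3 lie lower in every colon library than in any LPMC library.

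In LPMC the fitted values pointed the other way and none passed. Acta2 was at 116, 58.3 and 157 CPM in LPMC KO and at 306, 222 and 40.2 CPM in LPMC WT. The WT libraries lay on both sides of the KO libraries, with means of 110 ± 49.6 CPM in LPMC KO and 190 ± 136 CPM in LPMC WT (SD, n = 3 each) and a log2 fold change of -0.78 (SE 0.74). Actg2 was at 36.0, 19.6 and 60.5 CPM in LPMC KO and at 127, 94.9 and 8.41 CPM in LPMC WT, again with the lowest value in WT replicate 3. Its log2 fold change was -0.99 (SE 0.92), and that of Myh11 was -0.95 (SE 0.71). Cnn1 (-1.19, SE 0.87) and Des (-1.12, SE 0.85) had the most negative values. Ldb3 was at 9.82, 7.07 and 6.88 CPM in LPMC KO and at 11.6, 12.5 and 11.3 CPM in LPMC WT. Its groups did not overlap, and LPMC WT replicate 3, far below the rest of its group for most members, was close to it here. The log2 fold change of Ldb3 was -0.58 (SE 0.19), with an adjusted p of 0.998 in edgeR's quasi-likelihood test and 0.0181 without adjustment. Ldb3 lies on chromosome 14, 2.51 Mb from the deleted gene. Chrm3 alone was positive (0.25, SE 0.44), at 2.08, 6.05 and 2.71 CPM in LPMC KO and 2.90, 2.36 and 3.79 CPM in LPMC WT.

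By edgeR's quasi-likelihood test, 0 of 31 members were called in LPMC, with a background of 0.0103% of 19426 genes (0.00515% higher and 0.00515% lower). DESeq2 and limma voom called 0 members as well, where they called 34 and 2 of 19426 genes. Ldb3 was the 1 member at an unadjusted p under 0.05, where 2.64% of all genes were. Of the 31 fitted values 30 were negative, with a median of -0.58, against a median of -0.00412 over all genes. Among all genes 49.2% were positive. As in colon, the signs of members that vary together are not separate observations. In 1 member, Ldb3, all KO libraries lay below all WT libraries, where 3.74% of all genes tested did so. Without LPMC WT replicate 1 the median was -0.11, and without LPMC KO replicate 3 it was -0.91. LPMC WT replicate 1 also stood apart in genes of the mesothelium, the serosal lining on the outside of the muscle coat, which were chosen after their values were seen. Msln, mesothelin, was at 1.43, 0.0729 and 0.237 CPM in LPMC KO and at 35.3, 1.43 and 0.351 CPM in LPMC WT. Upk3b was at 28.8 CPM, Lrrn4 at 11.4 CPM and Wt1 at 6.14 CPM in LPMC WT replicate 1, against at most 1.56, 0.363 and 1.27 CPM in the other LPMC libraries. All 6 mesothelial markers tested were negative, with a median of -3.28. The whole list of 7 summed to 1835 to 2391 CPM in LPMC KO and 2564 to 2652 CPM in LPMC WT, of which nearly all was Krt19, a keratin that epithelium makes too. All 10 leukocyte markers were positive, with a median of 0.61, summing to 317 to 1210 CPM in LPMC KO and 427 to 829 CPM in LPMC WT. All 10 endothelial markers were negative, with a median of -0.51, summing to 178 to 429 CPM in LPMC KO and 262 to 502 CPM in LPMC WT. All 4 adipocyte markers tested were negative, with a median of -0.88, and the list of 8 summed to 7.57 to 9.92 CPM in LPMC KO and 13.1 to 17.6 CPM in LPMC WT. The part of these markers in the muscle values was not tested.

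**Figure D3:**
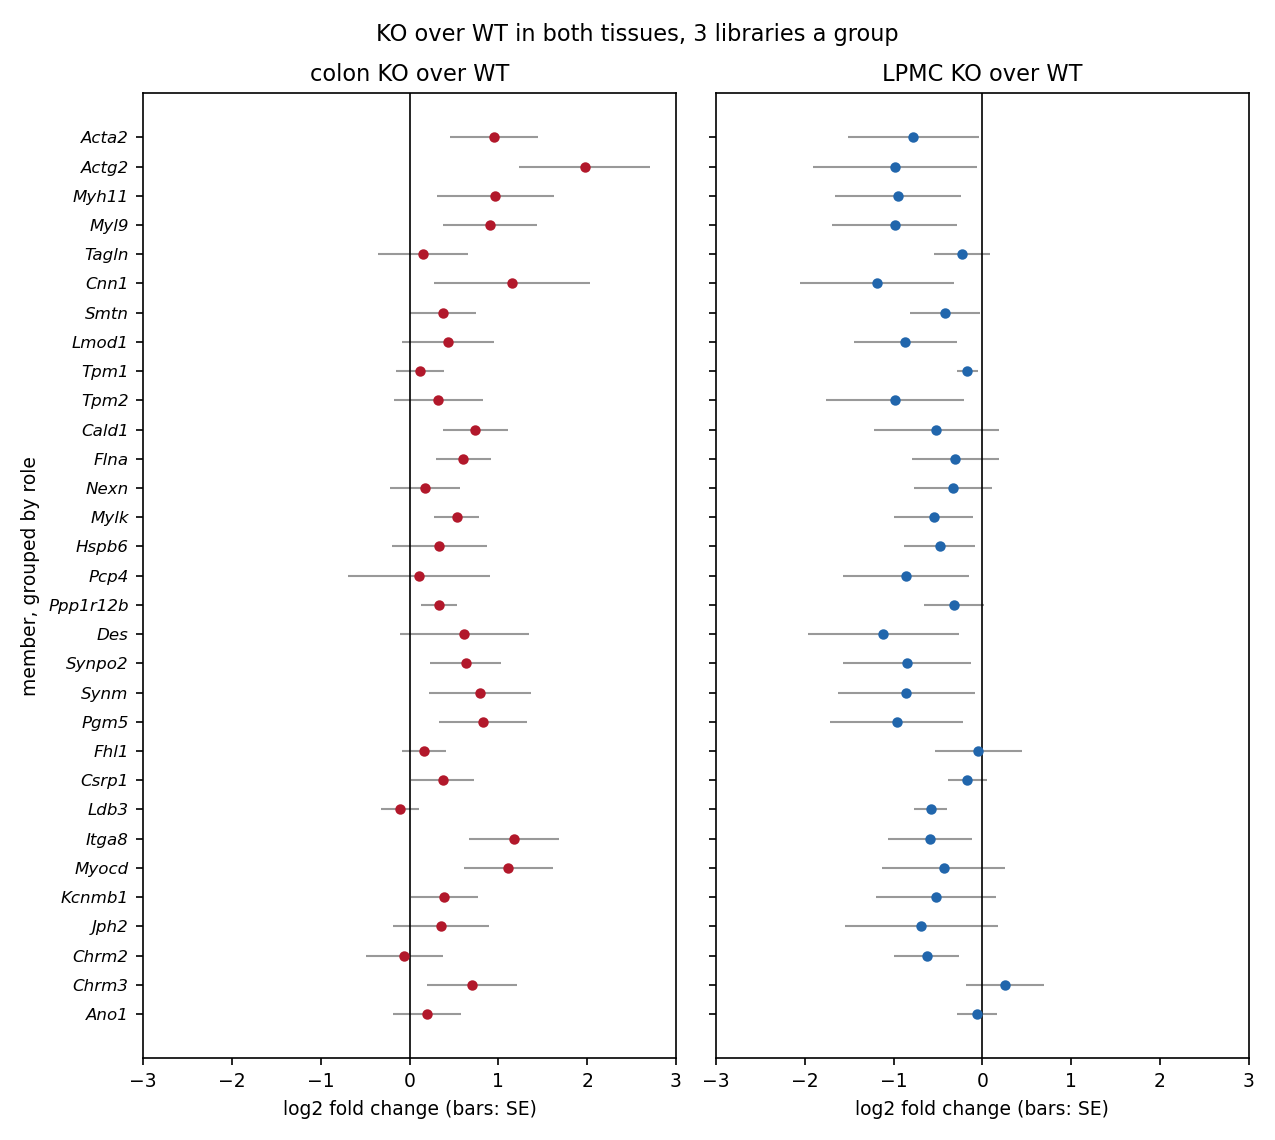
Log2 fold change of each member (rows, grouped by role) for KO over WT in colon (left) and in LPMC (right), with bars for 1 SE on either side and 3 libraries a group. Values lie right of 0 for 29 of 31 members in colon and left of 0 for 30 of 31 in LPMC, and none passed the test.

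The difference of the KO effect between the tissues, colon minus LPMC, was tested as an interaction over all 12 libraries. Every member had a positive value, from 0.22 for Fhl1 to 2.97 for Actg2, with a median of 1.06, against 0.01 over all genes. Actg2 (2.97, SE 1.30) and Itga8 (1.78, SE 0.70) had unadjusted p-values of 0.0437 and 0.0268. By edgeR's quasi-likelihood test 0 members were called (lowest adjusted p = 0.902), where 0% of 20989 genes were. DESeq2 and limma voom called 0 members too, where they called 3 and 0 of 20989 genes. By edgeR 2 members were at an unadjusted p under 0.05, where 4.69% of all genes were. Most members vary together across libraries, so 31 values of 1 sign are not 31 separate observations. Without LPMC WT replicate 1 the median of the interaction was 0.59.

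Full colon and LPMC were then compared over both genotypes, to see how much of the muscle programme each preparation held. The 4 genes of actin and myosin were not shown to differ between them. Acta2 ran from 56.0 to 307 CPM in colon libraries, with a median of 198, and from 40.2 to 306 CPM in LPMC libraries, with a median of 137. The ranges were nearly the same, with a log2 fold change of colon over LPMC of 0.26 (SE 0.48). Myh11 had a median of 216 CPM in colon and 159 CPM in LPMC and a log2 fold change of 0.22 (SE 0.53). Actg2 had a median of 62.2 CPM in colon and 48.2 CPM in LPMC and a log2 fold change of 0.37 (SE 0.64), and Myl9 was at 0.17 (SE 0.48). None of these 4 passed (adjusted p from 0.656 to 0.788 by edgeR's quasi-likelihood test). Their sign depended on single libraries: without colon WT replicate 2, Acta2 was at -0.12 and Myh11 at -0.26, and without colon KO replicate 2, Actg2 was at -0.15.

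In colon 3 members fell relative to LPMC, an integrin, a receptor and the regulator Myocd. On GRCm38 these are Itga8 (chr2:12106632-12301922), Chrm3 (chr13:9875486-10360847) and Myocd (chr11:65176561-65269989), all on the minus strand. Itga8 ran from 0.217 to 1.02 CPM in colon, with a median of 0.460, and from 1.71 to 5.93 CPM in LPMC, with a median of 2.52. Every colon library was below every LPMC library, and the log2 value was -2.74 (SE 0.37, adjusted p = 0.000157, edgeR's quasi-likelihood test). Chrm3 ran from 0.315 to 1.27 CPM in colon, with a median of 0.709, and from 2.08 to 6.05 CPM in LPMC, with a median of 2.80. Its groups did not overlap either, and the log2 value was -2.16 (SE 0.36, adjusted p = 0.000573, edgeR). Myocd ran from 0.338 to 1.69 CPM in colon, with a median of 0.686, and from 0.780 to 5.70 CPM in LPMC, with a median of 2.58. It overlapped only through LPMC WT replicate 3 at 0.780 CPM, and the log2 fold change was -1.75 (SE 0.46, adjusted p = 0.00849, edgeR). These are among the scarcest members, with 10 to 622 counts per library for Itga8, 22 to 498 for Chrm3 and 28 to 598 for Myocd.

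In colon 5 members rose relative to LPMC. Fhl1, a LIM domain protein of striated and smooth muscle, ran from 92.3 to 173 CPM in colon, with a median of 132, and from 24.9 to 92.8 CPM in LPMC, with a median of 64.9. Only the lowest colon and the highest LPMC library overlapped, and the log2 value was 1.18 (SE 0.29, adjusted p = 0.00683, edgeR's quasi-likelihood test). Chrm2 had a median of 3.84 CPM in colon and 1.89 CPM in LPMC, a log2 value of 0.96 (SE 0.30, adjusted p = 0.019, edgeR), so the 2 muscarinic receptors of gut muscle moved in opposite directions. Hspb6 had a median of 9.87 CPM in colon and 5.59 CPM in LPMC and a log2 value of 0.94 (SE 0.36, adjusted p = 0.0487, edgeR). Ldb3 (0.46, SE 0.14, adjusted p = 0.0178) and Tpm1 (0.43, SE 0.15, adjusted p = 0.0319) had smaller changes with little spread. Cnn1 had the largest positive value, 1.79 (SE 0.70), but missed the threshold (adjusted p = 0.0534, edgeR), with a median of 101 CPM in colon and 32.0 CPM in LPMC. Tpm2 (1.30, SE 0.51, adjusted p = 0.0536), Csrp1 (-0.57, SE 0.23, adjusted p = 0.0564), Synm (1.25, SE 0.53, adjusted p = 0.0708), Tagln (0.74, SE 0.32, adjusted p = 0.0732) and Des (1.30, SE 0.62, adjusted p = 0.103) did not pass either. Of the rest, Lmod1 (-0.31, SE 0.41), Pcp4, a small calmodulin regulator (-0.62, SE 0.56), and Flna (-0.19, SE 0.30) were negative, and the others lay between 0.01 for Ppp1r12b and 0.51 for Kcnmb1, with adjusted p of 0.183 or more (edgeR).

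Over all 12 libraries, the calls in this comparison were few for the list. By edgeR's quasi-likelihood test 5 members were higher and 3 lower in colon, against a background of 24.9% higher and 25.4% lower among 20989 genes, or 50.3% in either direction. The median of the members was 0.26, against -0.01 over all genes, with 24 of 31 positive. Itga8 and Chrm3 were the 2 members lower in every colon library, where 14.5% of all genes were, and 0 members were higher in every colon library, where 13.2% of all genes were. DESeq2 called 13 members, the 8 of edgeR among them, with Cnn1 (adjusted p = 0.00887), Tpm2 (0.0146), Synm (0.0235), Tagln (0.0382) and Des (0.0397) added as higher. Among all 20989 genes DESeq2 called 11543. With colon and LPMC libraries of the same number paired within a genotype, 8 members were called and 7 of them were the same. This paired fit called 10464 of 20989 genes. Hspb6 lost its call (adjusted p = 0.0884) and Csrp1 gained it as lower (adjusted p = 0.0234). Leaving out 1 library at a time, Itga8, Chrm3, Myocd, Fhl1 and Chrm2 were called in all 12 fits, Ldb3 in 11, Tpm1 in 7 and Hspb6 in 2. Tpm1 lost its call without colon WT replicate 2, LPMC KO replicates 1 and 3 or LPMC WT replicates 2 and 3. The highest adjusted p in these fits was 0.0512 for Ldb3, without LPMC KO replicate 3, 0.0751 for Tpm1, without LPMC KO replicate 1, and 0.145 for Hspb6, without colon WT replicate 2. Without LPMC KO replicate 3 the count of members was 5, where 9451 of 21802 genes were called. Within KO libraries 10 members were called, where 5053 of 19649 genes were, and the median was 0.94. Of these members, Itga8 and Chrm3 were lower, and Cnn1, Des, Mylk, Tpm2, Synm, Hspb6, Fhl1 and Chrm2 were higher. The share of members called there was not below that of all genes. Within WT libraries 3 members were called, all lower, with a median of -0.31. There 6393 of 19297 genes were called in either direction. The interaction given above is the test of that difference between genotypes, and it called 0 members.

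**Figure D4:**
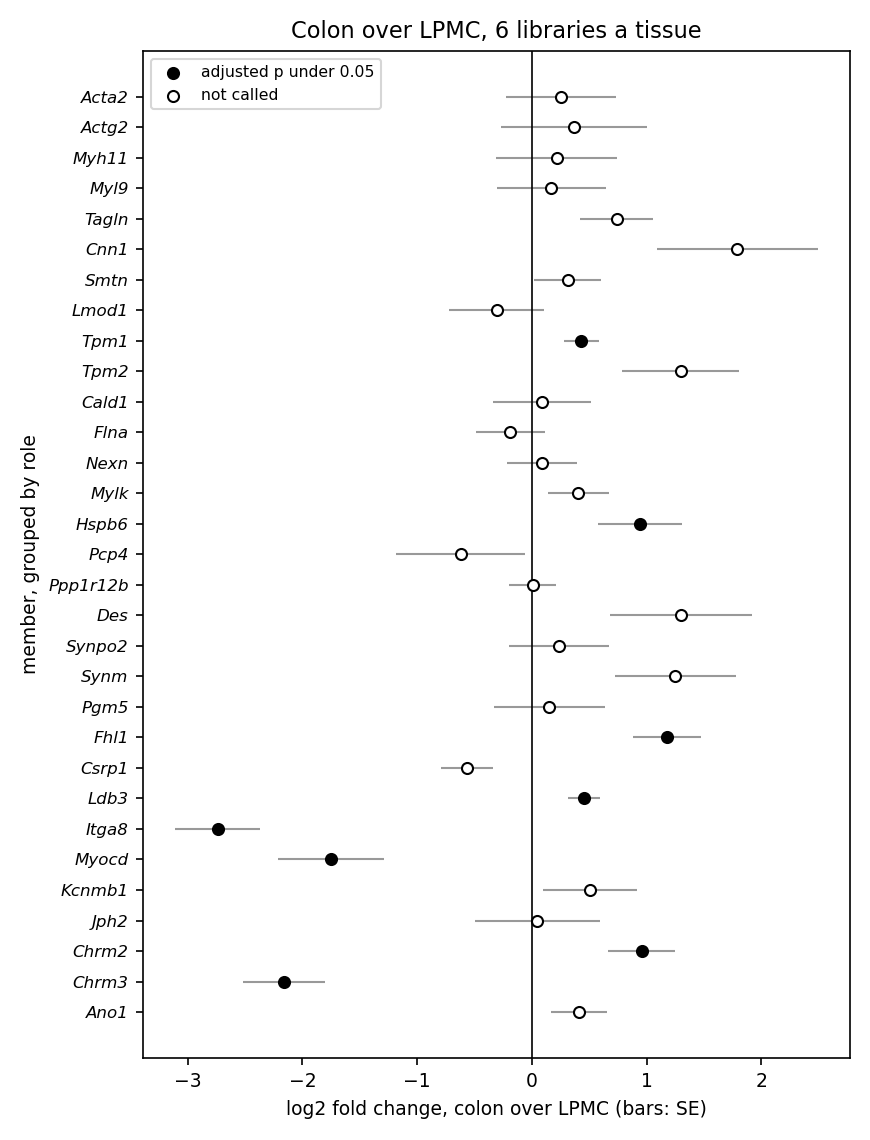
Log2 fold change of colon over LPMC for each member (rows, grouped by role), with bars for 1 SE on either side and filled points for an adjusted p under 0.05 (edgeR). Itga8, Chrm3 and Myocd stand on the left, Cnn1 lies farthest right without a call, and the actins and Myh11 lie near 0 with wide bars.

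To compare the makeup of the muscle transcripts apart from their amount, each member was divided by Myh11 in the same library, both per kilobase. Of the 30 other members 4 had a higher ratio in every colon library than in any LPMC library, and 2 a lower one. Over 21382 genes these shares were 1.95% and 2.64%, but they are no like background. Most members rose and fell with Myh11 across libraries, so dividing by it narrows their spread. For an unrelated gene the division can widen it. The counts are therefore not read against these shares. The ratio of Cnn1 was 1.07 to 2.39 in colon and 0.375 to 0.714 in LPMC, and that of Des was 1.37 to 3.07 in colon and 0.707 to 1.16 in LPMC. Tpm2 was at 1.17 to 4.41 in colon against 0.690 to 0.928 in LPMC, and Synm, synemin, at 0.112 to 0.191 in colon against 0.0499 to 0.0701 in LPMC. These 4 encode a regulator of thin filaments, a tropomyosin and intermediate filament proteins. Itga8 and Myocd had the lower ratios, and the ratios of Acta2 (2.25 to 3.90 in colon and 2.42 to 3.15 in LPMC) and Myl9 (2.18 to 3.69 in colon and 2.41 to 2.61 in LPMC) overlapped. Ratios to a shared gene are not independent of one another, and no test was run on them.

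Other genes of the muscle programme were taken from lists of its parts. For KO over WT, 0 genes of the 5 lists were called in colon or in LPMC by edgeR, and in colon 2 of 14 transcriptional regulators, 5 of 20 genes of calcium handling, 4 of 20 regulators of contraction, 3 of 34 genes of dense plaques and 2 of 16 receptors were at an unadjusted p under 0.05, where 7.79% of all genes were. Those of lowest p in colon included the adhesion protein vinculin Vcl (1.00, SE 0.29), the ATP receptor P2rx1 (1.87, SE 0.48) and the sodium-calcium exchanger Slc8a1 (1.61, SE 0.50). Vcl was at 93.9, 57.1 and 117 CPM in colon KO and at 47.4, 33.7 and 51.2 CPM in colon WT, without overlap. For colon over LPMC, 1 of 14 transcriptional regulators tested was called higher and 7 lower. Srf, the partner of myocardin, was at 86.7, 79.0 and 76.2 CPM in colon KO and at 90.7, 114 and 98.7 CPM in colon WT, against 201, 351 and 228 CPM in LPMC KO and 215, 252 and 234 CPM in LPMC WT. It fell in colon by 1.45 on the log2 scale (SE 0.14, adjusted p = 1.81e-05, edgeR's quasi-likelihood test). Mrtfa (-0.64) and Mrtfb (-0.86), which activate SRF when actin polymerises, were lower too (adjusted p = 0.000507 and 0.000509, edgeR), and Hand2, a factor of gut mesenchyme and enteric neurons, was higher (2.88, adjusted p = 0.0026, edgeR).

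The calls of the remaining muscle lists in colon relative to LPMC stand against the background of 24.9% higher and 25.4% lower given above. Of 21 genes of calcium handling, 3 were higher and 6 lower, among them the ryanodine receptor Ryr2 (1.56) and Slc8a1 (-2.77). Of 20 regulators of contraction tested, 2 were higher and 10 lower, among them the light chain Myl6 (1.03) and both subunits of the nitric oxide receptor, Gucy1a1 (-2.24) and Gucy1b1 (-2.08). Of 35 genes of dense plaques and the cytoskeleton, 4 were higher and 12 lower, with Vcl at -0.74 and Vim, the vimentin of connective tissue cells, at -1.84. Of 18 receptors for contractile agonists, 3 were higher and 9 lower, with the substance P receptor Tacr1 at 3.68 and the endothelin receptor Ednra at -2.03. All genes named here were called by edgeR, with adjusted p of 0.00602 or less. Beside these lists, all 12 fibroblast markers, 8 of 10 endothelial markers and 4 of 9 pericyte markers were lower in colon, and many of the genes named are also made by such cells. Their part in the counts of the muscle lists was not tested.

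Markers of cells that lie between the muscle layers, among other places, gave a contrast with the members. Enteric neurons and glia form a plexus inside the muscle coat, though they do not lie only there. By edgeR 11 of 12 neuronal markers and 5 of 8 glial markers were higher in colon, where 24.9% of all genes were. Nos1, the nitric oxide synthase of inhibitory motor neurons, was at 20.8, 36.9 and 18.3 CPM in colon KO and 17.0, 18.5 and 15.5 CPM in colon WT, but at 0.902, 0.486 and 0.973 CPM in LPMC KO and 1.58, 0.928 and 0.488 CPM in LPMC WT. The tissues were far apart, by 4.54 on the log2 scale (SE 0.33, adjusted p = 3.42e-06, edgeR's quasi-likelihood test). Gfap, a filament of glia, was at 6.27 to 26.5 CPM in colon libraries and 0.0945 to 0.507 CPM in LPMC libraries, a difference of 5.92 on the log2 scale (SE 0.48, adjusted p = 6.1e-06, edgeR). The summed neuronal markers were 99.4 to 219 CPM in colon libraries and 17.0 to 42.2 CPM in LPMC libraries, without overlap, whereas the summed members, at 1494 to 4462 CPM in colon and 1124 to 3678 CPM in LPMC, overlapped. The summed glial markers overlapped too, at 261 to 559 CPM in colon libraries and 248 to 400 CPM in LPMC libraries. The sum of the members is weighted to abundant genes such as Tpm1, as given above. Of 7 markers of interstitial cells of Cajal tested, 1 was higher and 2 were lower in colon. Thbs4, a thrombospondin, was the higher one, at 264 to 478 CPM in colon libraries against 82.4 to 181 CPM in LPMC libraries (adjusted p = 0.000334, edgeR). Kit, which marks interstitial cells of Cajal and mast cells, was lower in colon, at 4.18 to 18.8 CPM against 71.7 to 153 CPM in LPMC libraries (log2 fold change -3.22, SE 0.25, adjusted p = 4.48e-06, edgeR). Nos1, Gfap, Kit, Thbs4 and the genes of the colon over LPMC comparison outside the members were chosen after their values were seen.

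**Figure D5:**
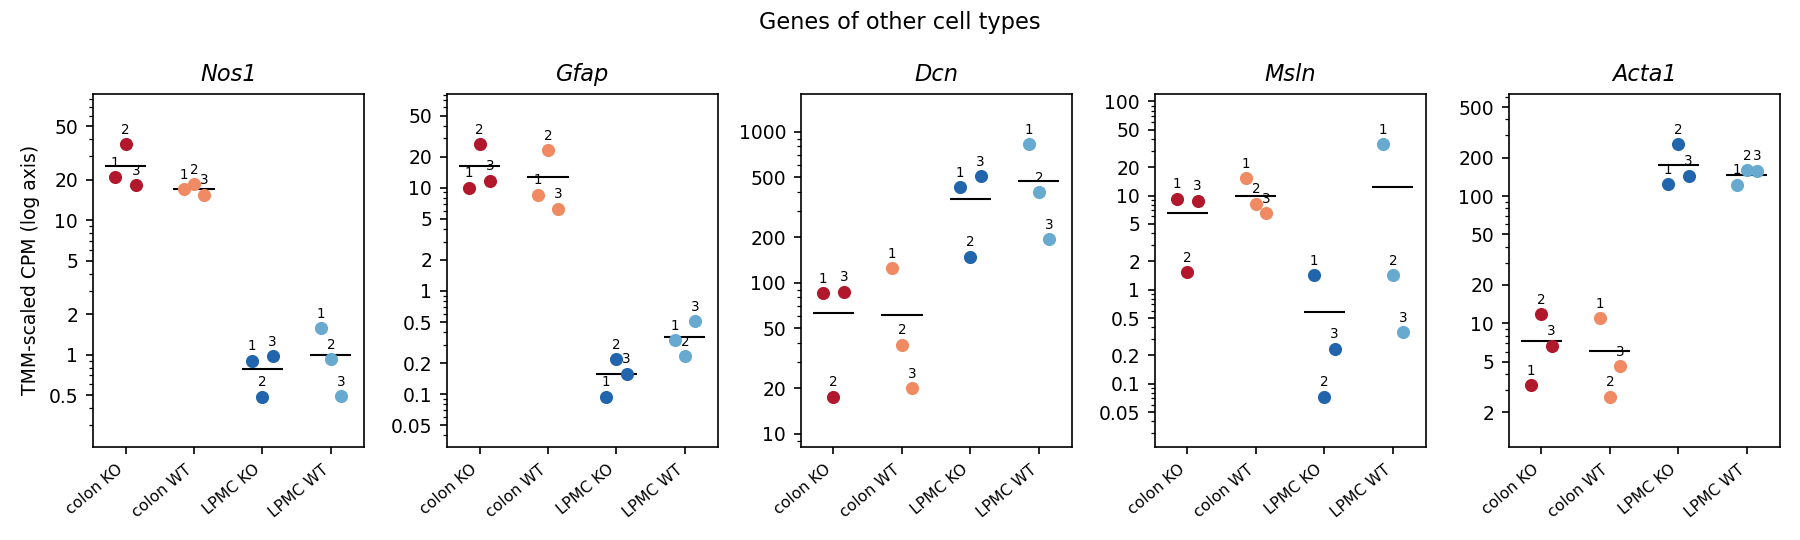
TMM-scaled CPM (log axis) in the 12 libraries of genes of neurons (Nos1), glia (Gfap), fibroblasts (Dcn), mesothelium (Msln) and skeletal muscle (Acta1), with the replicate number at each point and the group mean as a line. Nos1 and Gfap are higher in all colon libraries, Dcn and Acta1 in all LPMC libraries, and Msln stands out in LPMC WT replicate 1.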

How the data were processed

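The authors deposited a table of read counts per Ensembl gene for 12 libraries, with no normalization. Per the labels' protocols, strand-specific mRNA libraries were sequenced on an Illumina instrument. Per the submitters' processing notes, STAR and GRCm38 (mm10) were used. For the counting tool, its strand setting and the annotation, nothing is given in the labels. Of counts from 1 to 20, 71.9% were even, as when both mates of a pair are counted, so counting error may exceed what the counts imply.

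Columns were mapped to samples by library name. In R 4.3.3, edgeR 4.0.16 was fitted on all genes (TMM factors, filterByExpr with a minimum count of 10, robust quasi-likelihood F-test), with Benjamini-Hochberg adjustment over all genes tested and calls under 0.05. KO was set against WT within the 6 libraries of a tissue, and the interaction and colon over LPMC were fitted on all 12. All 31 members passed the filter in all 4 comparisons. The SE is the size of the log2 fold change divided by the square root of F. DESeq2 1.42.0 and limma 3.58.1 (voom) were alternatives, with other scalings, filters, replicate blocks and libraries left out. The edgeR step was tested on simulated counts. Relative levels used log2 of CPM plus 0.01.

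Deviations from group means correlated between colon and LPMC libraries of the same number in all 6 pairs (0.143 to 0.355). Within a genotype, colon and LPMC libraries of different number gave -0.394 to 0.211. LPMC KO replicate 2 and LPMC WT replicate 3, of different genotype, gave 0.544. The correlations therefore do not show which libraries share a mouse. The main fits used no pairs, and pairs by number were an alternative only. Members and lists were chosen with earlier results of these data known. The rule for values per library took the 10 members of highest mean CPM in colon, up to 4 of lowest p in each comparison, Myocd, Chrm2, Chrm3 and Ano1, and up to 4 genes of each other muscle list and 3 of each cell type list by lowest p in colon KO over WT. Promoters are from RefSeq (GRCm38.p6), and actin coding sequences, compared with Biopython 1.88, from GENCODE M21.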

Additional observations from a re-analysis of the deposited data

How the results depend on the processing

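For KO over WT in colon and LPMC and for the interaction, 0 members were called under every alternative run, DESeq2 and limma voom included, and over fits without 1 library the median log2 fold change ran from 0.26 to 0.99 in colon, from -0.91 to -0.11 in LPMC and from 0.59 to 1.53 for the interaction. For colon over LPMC, those fits called 5 to 11 members with medians from 0.01 to 0.50, and 9451 to 10790 of all genes. DESeq2 called 13 members. The fits of 1 genotype, the 6 pairs and the joint removal below were alternatives chosen after seeing the data. WT libraries alone called 3 members, and KO libraries alone gave a median of 0.94. Alternatives for single members were written for 8 members in colon KO over WT, 9 in LPMC, 8 in the interaction and 13 in colon over LPMC, not for all 31. Of these 696 values 9 turned their sign, 650 kept direction and side of the threshold, 31 lost and 6 gained a call. Des in colon KO over WT ran from -0.08, without colon KO replicate 2, to 1.82, without colon WT replicate 2. For colon over LPMC over the same kind of fits, Acta2 ran from -0.12, Actg2 from -0.15 and Myh11 from -0.26, to 0.52, 0.65 and 0.52 in that order of genes. Acta2 and Myh11 were lowest without colon WT replicate 2 and Actg2 without colon KO replicate 2, and Myh11 was also at -0.0022 without colon KO replicate 2 and at -0.03 without LPMC WT replicate 3. In WT libraries alone, Acta2 was at -0.60, Actg2 at -1.10 and Myh11 at -0.74, and over all 31 members 12 with a positive value in colon over LPMC were negative there. The cause was not tested. With the replicate number as a block, 0 members were called for KO over WT, with medians of 0.61 in colon and -0.53 in LPMC, and KO and WT libraries of the same number share only that number (correlations of -0.408 to 0.293). With the 6 colon and LPMC pairs as a block, the interaction had a median of 0.92 and 0 calls, and colon over LPMC 8 calls and a median of 0.37. In colon over LPMC without colon KO replicate 2 and LPMC WT replicate 1, 7 members were called, where 9491 of 21604 genes were. With 3 libraries a group, the spread between them limits the KO over WT values of most members. The SE was smallest for Ppp1r12b (0.21) and Ldb3 (0.22) in colon. In LPMC it was smallest for Tpm1 (0.12) and Ldb3 (0.19), while Tpm1 had 0.27 in colon. At 45.4 M counts or more per library, Pcp4, with 8 to 102 counts, is also limited by counting.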

Other observations

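Acta1, the skeletal muscle actin, was at 3.27, 11.8 and 6.68 CPM in colon KO and 11.0, 2.65 and 4.58 CPM in colon WT, against 124, 256 and 144 CPM in LPMC KO and 123, 160 and 158 CPM in LPMC WT. Every colon library lay below every LPMC library, and Acta1 fell in colon by 4.59 on the log2 scale (SE 0.44, adjusted p = 2.37e-05, edgeR's quasi-likelihood test). Of the 14 skeletal muscle markers, 8 could be tested, and 1 was called higher and 2 lower in colon by edgeR. The others called were Tnni2, a fast troponin I (3.36, SE 0.59, adjusted p = 0.000817), and Myh7, the slow myosin (-3.43, SE 0.94, adjusted p = 0.0109). Myh4, a fast myosin, was listed at 0 in all libraries, Tnnc2, a fast troponin C, and Myh2, a fast myosin, were at 0.086 CPM or less, and Mylpf, a fast light chain, was at 1.04 to 2.10 CPM in colon and 1.02 to 1.53 CPM in LPMC. LPMC KO replicate 2, the library of highest Acta1, had a muscle level of 0.518 and the highest Srf (351 CPM). Acta1 was no member and was chosen after its values were seen.

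Cfd, adipsin, a product of fat cells, was at 23.0 CPM in colon KO replicate 3, against at most 1.61 CPM in the other colon libraries. The muscle level of that library was 1.42. Colon KO replicate 2 and colon WT replicate 2, with little Cfd, had higher muscle levels, at 1.71 and 1.48. A link between Cfd and the muscle level was not tested. Cfd was named by the rule of lowest p in colon KO over WT.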
